A study of Mus musculus with 2 samples.

Results

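Msi2 was followed across the states of bone marrow LSK cells (Lin-Sca-1+c-Kit+, the fraction that holds blood stem cells and early progenitors) in a mouse model of chronic myeloid leukemia (CML). It is 1 of the 32285 genes in the deposited matrices and was chosen by name, with earlier results of these data known. The single cell libraries were made with a 10x Genomics 3′ kit, 1 from miR-142 WT CML and 1 from miR-142 KO CML mice. Both groups were BCR-ABL+ and 8 to 10 weeks old, and the KO mice also lacked Mir142. Per the study's methods, BCR-ABL was under a tet-off system driven by SCL regulatory sequence on a C57BL/6 background, and cells were sorted 2 weeks after tetracycline had been withdrawn. How many mice stood behind a library was not stated. With 1 library per group no test could be made, and all 95% intervals cover counting error only.

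Msi2 codes for Musashi-2, an RNA-binding protein that attaches to short motifs in messenger RNAs and alters how much protein they yield. In blood it is known as a protein of stem and progenitor cells whose level falls as cells mature, and high MSI2 has been tied to advanced CML. MiR-142 is a microRNA of blood cells, and it represses messages whose 3′ untranslated region (UTR) pairs with its seed, bases 2 to 8.

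The Msi2 gene (ENSMUSG00000069769) covers 379 kb of the minus strand at chr11:88339382-88718513 (GRCm38), on the same chromosome as Mir142, which ends 582 kb before it. Because Msi2 was read in cells with and without miR-142, its UTRs were searched for both mature arms. The arms (RefSeq, GRCm38.p6, plus strand, miR-142a-3p at chr11:87756903-87756925 and miR-142a-5p at chr11:87756867-87756887) are shown with the seed in capitals, and the only match found follows them with the pairing bases in capitals.
miR-142a-3p: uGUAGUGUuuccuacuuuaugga
miR-142a-5p: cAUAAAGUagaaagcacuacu
Msi2 site: cctgggcacagACACTACAcaaggcaatgc
The match lies at chr11:88340221-88340250 on the minus strand, in the 3′ UTR of the transcript Msi2-203. This UTR is 5310 bases long and the 8 matching bases (ACACTACA, at 88340232 to 88340239) begin at its base 4453, with 850 bases after them. The shorter UTRs of Msi2-201 (803 bases) and Msi2-202 (126 bases) held no match, and none of the 3 UTRs held ACTTTAT, the match to miR-142a-5p. Only the message strand was searched. Other genes held such matches too. Shares were taken over the 7297 genes with an annotated 3′ UTR and a mean of 10 CPM or more. CPM stands for molecules of a gene per 1000000 counted in a library. In their longest UTR 3.01% held ACACTACA, the 8 bases found in Msi2, 7.19% held ACACTAC and 16.3% held ACTTTAT. A match describes letters, and whether Msi2 is bound was not measured.

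Cells were barcodes with at least 8000 UMIs (unique molecular identifiers, each standing for 1 captured RNA molecule) and under 10% mitochondrial UMIs. This gave 5363 WT cells with a median of 19443 UMIs and 5458 KO cells with a median of 24182 UMIs, and 4 barcodes occurred in both libraries. Mir142hg, the host transcript of the miRNA, had 1260 UMIs in the WT and 20 in the KO library. Kit (86.4 and 68.3 CPM) and the Sca-1 gene Ly6a (96.8 and 153 CPM), whose proteins were used for the sort, were read in WT and KO alike. Defining T cell, NK cell and B cell markers (Cd3e, Cd3g, Trac, Ncr1, Ms4a1) were under 0.1 CPM in both, while Nkg7 (207 and 301 CPM), Cd79b (35.95 and 34.6 CPM), Cd79a (3.69 and 0.0505 CPM) and Klrb1c (0.796 and 0.972 CPM) were above that in WT, KO or both. Their part in the Msi2 values was not tested. Genes of antibody-secreting cells were not: Igkc was at 3705 CPM among WT cells and 1.55 CPM among KO cells.

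Msi2 was lower in the KO library. Summed over cells it had 15683 UMIs in the WT library and 7345 in the KO library, or 113 CPM (95% interval 112 to 115) and 46.4 CPM (45.3 to 47.4). The log2 ratio of KO over WT was -1.29 (-1.33 to -1.25), a level 2.45-fold lower in KO. The study itself reported the opposite direction, with more Msi2 mRNA and protein in LSK cells of KO CML than of WT CML mice. Why these results differ was not tested. Of the 7483 genes with a mean of at least 10 CPM, 1.18% were at least 2-fold lower in KO and 1.02% at least 2-fold higher, and Msi2 was number 52 from the lowest. The median log2 ratio of these genes was -0.08. Scaling by median-of-ratios size factors, which takes in all genes with a UMI in both libraries, shifts every ratio by 0.20 upward and puts Msi2 at -1.095. The paralog Msi1 had 1 UMI in each library, so Musashi transcripts in these cells were all but entirely Msi2.

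Per cell, Msi2 was sparse. An average WT cell held 2.92 Msi2 UMIs and an average KO cell 1.35. The highest count in a cell was 31 in WT and 11 in KO. Since depth differed, each cell was thinned at random to 8000 UMIs. At that depth a Msi2 UMI was found in 60.8% of WT cells (59.4 to 62.1) and in 35.1% of those from KO (33.8 to 36.4), a difference of -25.7 percentage points. Without thinning the shares were 85.2% and 66.3%. Cells with at least 5 Msi2 UMIs made up 2.89% of the WT and 0.403% of the KO library. The counts spread more widely than 1 shared rate would give: the variance was 1.61 times the mean in WT and 1.41 times in KO, and 39.2% of WT cells had no Msi2 UMI where a Poisson count of the same mean would leave 29.4% (64.9% and 60.0% in KO).

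**Figure D1:**
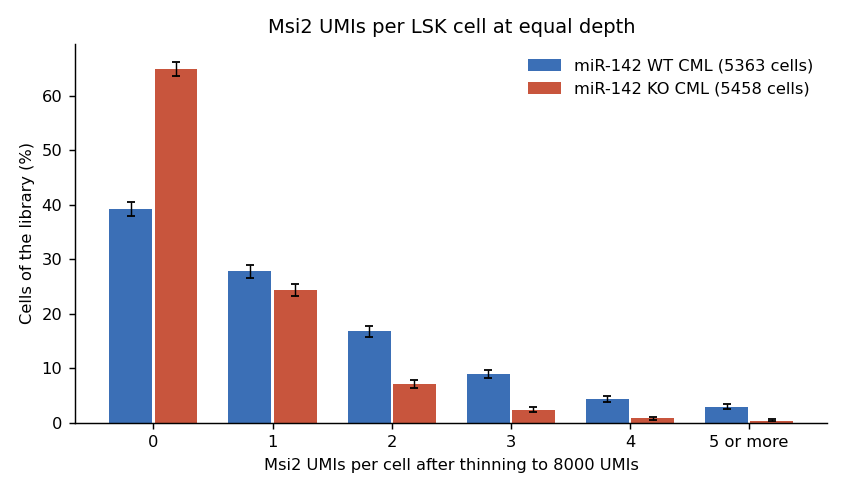
Share of cells of each library (vertical axis, %) with 0 to 4 or with 5 or more Msi2 UMIs after thinning to 8000 UMIs per cell (horizontal axis). Bars start at 0 and error bars are exact 95% binomial intervals. The KO library had more cells at 0 (64.9% against 39.2%) and fewer in every class with a UMI.

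Free RNA carried Msi2 too. In barcodes of 10 to 100 UMIs, which are mostly empty droplets, Msi2 had 58.6 CPM in the WT library (616 UMIs) and 25.5 CPM in the KO library (368 UMIs). No cell type known to lack Msi2 could be gated. The lowest detection at 8000 UMIs was 23.7% in WT, in cells with monocyte markers (median depth 54864 UMIs), and 20.4% in KO, in cells with neutrophil granule genes (39854 UMIs). Among cells of a depth nearer to the others, those with mast cell and basophil genes were lowest, at 34.2% and 34.3% (medians of 17223 and 16294 UMIs). What free RNA added to these shares was not tested.

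Levels were then read by cell state. Cells were gated on marker lists that do not contain Msi2, counted at 8000 UMIs per cell: at least 5 of 12 HSC markers or 5 of 10 lymphoid-primed markers, at least 4 megakaryocyte, erythroid, monocyte, innate lymphoid or antibody-secreting markers, at least 50 summed UMIs of 10 neutrophil granule genes, or at least 40 of 11 mast cell and basophil genes. Each gate is a range of marker counts, not a cell type, and its threshold was set after the counts had been seen. A share of 26.9% of WT and 15.2% of KO cells lay at the HSC threshold or 1 marker below it. Cells in the HSC gate had a median of 6 HSC, 3 lymphoid-primed, 2 granule and 1 monocyte markers in WT and 5, 3, 3 and 1 in KO. Cells in the granule gate had a median of 0.5 HSC markers in WT and 1 in KO, beside 2 monocyte markers in both. No gate was passed by 39.3% of WT and 24.9% of KO cells, and several by 9.01% and 8.35%.

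Msi2 was highest in the HSC gate of both libraries. The 855 WT cells there stood at 240.1 CPM (95% interval 232 to 249) and the 218 KO cells at 137 CPM (124 to 151). At equal depth 79.2% of these WT cells and 66.5% of these KO cells had a Msi2 UMI. The lymphoid-primed gate, set on early lymphoid genes such as Flt3 and Dntt, came next with 150.4 CPM in 661 WT cells and 99.4 CPM in 442 KO cells. The megakaryocyte gate, set on platelet-lineage genes such as Pf4 and Itga2b, had 134 CPM in 135 WT cells and 75.3 CPM in 104 KO cells. Both libraries thus kept the same first 3 of the 6 gates that held 50 cells or more in each.

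The myeloid gates were at the other end, and their cells had many cell cycle genes (in WT a median of 7 G2/M markers in each, against 1 in the HSC gate). Cells with neutrophil granule genes, such as Elane and Mpo, had 38.2 CPM among 344 WT cells and 28.4 CPM among 2170 KO cells. Cells with monocyte markers, such as Irf8 and Csf1r, were lowest, with 30.5 CPM among 541 WT cells and 25.3 CPM among 430 KO cells. The mast cell and basophil gate lay between, with 55.8 CPM among 155 WT cells and 60.0 CPM among 175 KO cells. In WT each of these 6 gates differed from the next in the order beyond counting error. In KO the innate lymphoid gate (83.0 CPM, 81 cells) stood between the lymphoid-primed and megakaryocyte gates, and its intervals against both included 0. Free RNA (58.6 CPM in WT and 25.5 CPM in KO) was above the granule and monocyte levels in WT, and between them in KO. In WT it was also above the mast cell and basophil level, whose interval (48.1 to 64.4) included it, and in KO it was below that level. How much of these low levels came from free RNA was not tested.

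Small gates gave wide intervals. The erythroid gate was at 92.2 CPM in 38 WT cells (73.6 to 114) and 83.8 CPM in 21 KO cells (55.7 to 121), which overlap. The innate lymphoid gate of WT held 7 cells with 10 Msi2 UMIs. The antibody-secreting gate held 35 WT cells at 93.2 CPM and 0 KO cells, and it supplied 95 of the 15683 WT Msi2 UMIs.

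**Figure D2:**
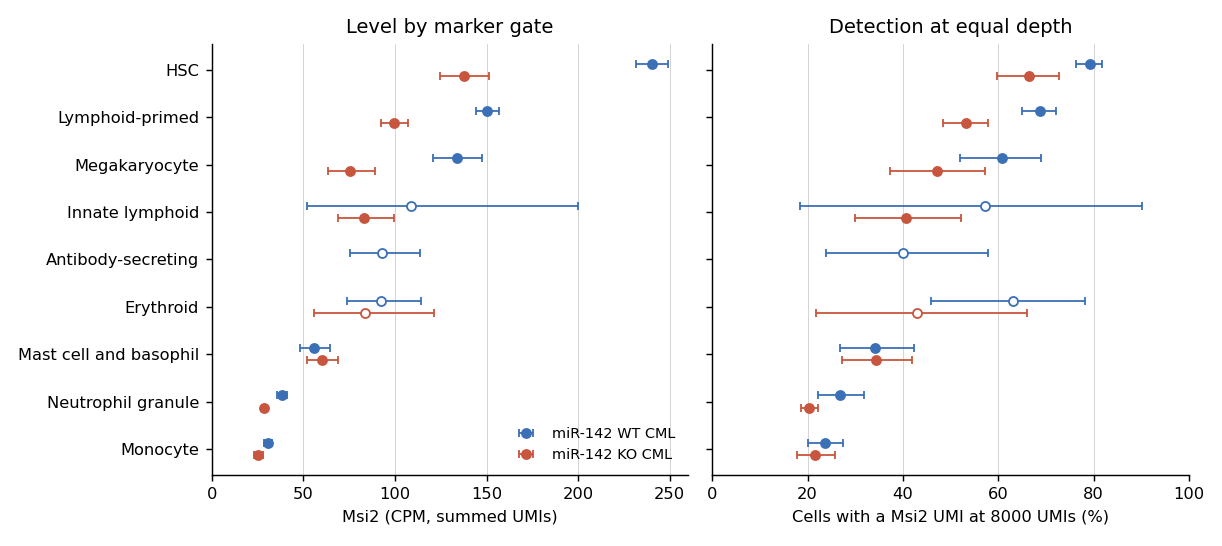
Msi2 by marker gate in miR-142 WT CML (blue) and miR-142 KO CML (red), as CPM of summed UMIs (left) and as the share of cells with a Msi2 UMI at 8000 UMIs per cell (right). Points are gates, open where a gate held under 50 cells, and bars are exact 95% intervals of counting error. Levels run from 240.1 CPM in the WT HSC gate down to 25.3 CPM in the KO monocyte gate, and the mast cell and basophil gate is the only one where the KO point lies to the right on the left panel.

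Within each of the 6 gates the difference between libraries was smaller than over all cells. The log2 ratio of KO over WT was -0.81 in the HSC gate (-0.96 to -0.66), -0.83 in the megakaryocyte gate (-1.12 to -0.54) and -0.60 in the lymphoid-primed gate (-0.72 to -0.47). It was -0.42 in the granule gate (-0.54 to -0.30) and -0.27 in the monocyte gate (-0.44 to -0.10). In the mast cell and basophil gate it was 0.10 and its interval included 0 (-0.19 to 0.40). Thus 5 of the 6 gates were lower in KO beyond counting error, with a median of -0.51 over all 6, and under size factors the monocyte value came to -0.07. Cells outside every gate showed -0.80 (-0.87 to -0.73). Cells that passed several gates (483 in WT and 456 in KO) showed -1.27 (-1.41 to -1.13), about as much as all cells together.

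The libraries also differed in which states they held. The granule gate took 6.41% of WT and 39.8% of KO cells, and the HSC gate 15.9% and 3.99%. With both libraries weighted to 1 shared composition of gates, WT cells had 119 CPM of Msi2 and KO cells 70.4 CPM, which gives a log2 ratio of -0.75 in place of -1.29.

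The scale matters for the gap between states. In WT the HSC gate was 6.29-fold above the granule gate in CPM (log2 ratio 2.65, interval 2.54 to 2.77) and in KO 4.83-fold (2.27, 2.12 to 2.42). Counted as Msi2 UMIs per cell the gap was 3.49 against 2.08 in WT and 1.86 against 1.16 in KO, or 1.68-fold and 1.60-fold. Granule gate cells carried far more RNA in all, with medians of 53643 UMIs in WT and 39854 in KO, against 12283 and 11168 UMIs in the HSC gate. A granule gate cell thus held fewer Msi2 molecules, and these were a much smaller fraction of its RNA. The KO deficit stood on both scales: per cell the log2 ratio was -0.91 in the HSC gate, -1.05 in the lymphoid-primed gate and -0.83 in the granule gate, and -0.10 in the mast cell and basophil gate. These per-cell counts were not thinned, and KO cells were shallower in each of these gates. In the lymphoid-primed gate the median was 13122.5 UMIs in KO against 18519 in WT.

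The fall along the marker lists was graded rather than stepwise. In WT, Msi2 was 27.8 CPM in cells with 0 HSC markers, 110.45 CPM with 2, 182 CPM with 4 and 253 CPM with 7 or more. In KO the same classes stood at 19.9, 58.1, 101 and 149.8 CPM. KO was below WT in each of the 7 classes with 50 cells or more in both libraries, with log2 ratios from -1.01 to -0.48, the last in cells with 0 HSC markers.

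With granule genes Msi2 first climbed and then fell. WT cells with 0 to 4 summed granule UMIs had 169 CPM of Msi2, those with 5 to 9 had 199.6 CPM, those with 25 to 49 had 80.5 CPM, and those with 200 or more had 14.2 CPM. In KO the values were 83.9, 126, 65.6 and 18.1 CPM. In CPM the difference between libraries closed along this axis: the log2 ratio was -1.01 at 0 to 4 granule UMIs (-1.14 to -0.89), -0.66 at 5 to 9, -0.55 at 10 to 24 and -0.30 at 25 to 49 (-0.41 to -0.19). From 50 UMIs upward the intervals included 0, with ratios of 0.10 (-0.03 to 0.24), -0.14 (-0.27 to 0.00) and 0.35 (-0.06 to 0.78). Split by cell cycle genes, cells with 50 granule UMIs or more gave -0.16 (-0.31 to -0.02) with 7 or more S phase markers and -0.22 (-0.36 to -0.07) with 9 or more G2/M markers. Those between the cycle classes (151 WT and 888 KO cells) gave 0.01 (-0.20 to 0.23). In Msi2 UMIs per cell, not thinned, KO was lower. The log2 ratio was -0.52 at 50 to 99 granule UMIs, -0.60 from 100 to under 200 and -0.16 at 200 or more. KO cells were shallower in these classes. Their medians were 28183, 44567 and 43837.5 UMIs, against 47838.5, 61823 and 62346 in WT. Thinned to equal depth, the mean Msi2 UMIs per cell were 0.35 in both libraries at 50 to 99 granule UMIs. From 100 to under 200 they were 0.20 in KO and 0.27 in WT, and at 200 or more 0.154 and 0.148. In CPM the whole granule gate still gave -0.42, and within it KO cells carried more granule UMIs (median 136 against 102.5). The gate and these classes hold different cells, since cells that also passed the monocyte or another gate are only in the classes. In WT 802 cells had 50 granule UMIs or more and 344 were in the gate, in KO 2747 and 2170. What this overlap added to the ratios was not tested.

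Cell cycle genes gave a further axis. In cells with under 50 granule UMIs, WT Msi2 was 184 CPM with 0 of 12 G2/M markers, 125 CPM with 5 and 192 CPM with all 12, and KO Msi2 was 105, 72.4 and 106 CPM. Levels were thus lowest in the middle and high at both ends. Msi2 UMIs per cell did not dip: they were 2.53, 3.14 and 4.82 in WT and 1.33, 1.66 and 2.45 in KO, while median UMIs per cell were 12160, 22547 and 22569 in WT. Of these low-granule cells, those with few cycle genes (up to 3 S phase and 1 G2/M markers) had a KO over WT log2 ratio of -0.78, those with 7 or more S phase markers -0.91, and those with 9 or more G2/M markers -0.68. The lower level in KO was present in each of these cycle classes.

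**Figure D3:**
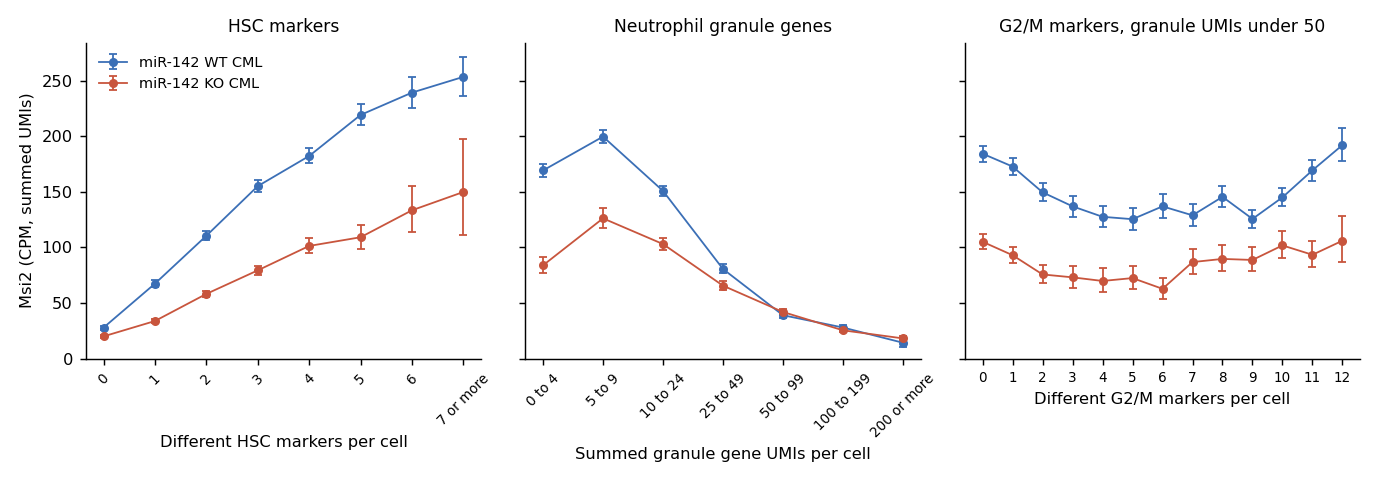
Msi2 in CPM (vertical axes) by the number of HSC markers (left), the summed UMIs of neutrophil granule genes (middle) and the number of G2/M markers in cells with under 50 granule UMIs (right), all counted at 8000 UMIs per cell, in WT (blue) and KO (red). Bars are exact 95% Poisson intervals. Msi2 climbs with HSC markers to 253 CPM in WT and 149.8 CPM in KO, the libraries lie close together in CPM at 50 granule UMIs and above, and the G2/M panel is lowest in its middle.

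Most genes that varied with Msi2 across cells did so in the same direction in both libraries. For each of 2548 genes of at least 50 CPM in both, Pearson's r with Msi2 was taken across cells as log2(UMI + 1) at 8000 UMIs, over 5363 WT and 5458 KO cells. Cells of 1 library share that library, its free RNA and the cell states above, so r describes them and is no test. It ran from -0.38 to 0.37 in WT and from -0.34 to 0.33 in KO, and 2283 genes had the same sign in both. A total of 190 genes reached 0.1 and 355 reached -0.1 in both. As a measure of how sparse the counts are, 2 separate draws of 4000 UMIs from the same cells gave Msi2 an r with itself of 0.24 in WT and 0.14 in KO. Original depth also varied with Msi2. Cells with 0 Msi2 UMIs at 8000 UMIs had a median of 25686 UMIs in WT and 28949 in KO before thinning. Those with 3 or more had 14645 and 12246. How far r follows the depth of cells was not tested.

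Ctla2a, a gene of the HSC list, was most like Msi2 (r = 0.37 in WT and 0.33 in KO). Its level was 359 CPM in WT cells with 0 Msi2 UMIs, 629.8 with 1, 912 with 2 and 1065 with 3 or more, and 464, 832, 1360 and 1686 CPM in KO. Next came Xist, the RNA that coats the inactive X chromosome (0.35 and 0.32), the nuclear RNA Malat1 (0.36 and 0.31) and Zfp36l2, which codes for a protein that promotes decay of AU-rich messages (0.34 and 0.28). Adgrl4 and Adgrg1, adhesion receptors, had 0.27 and 0.28 in WT and 0.27 and 0.25 in KO. Car2 (carbonic anhydrase 2, an erythroid list gene), Pnrc1, Nrgn, the immediate early gene Egr1, the transcription factor gene Sox4 and Serinc3 made up the 12 highest. These last 6 lay between 0.23 and 0.29 in WT and between 0.23 and 0.24 in KO.

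The 12 lowest were led by Ctsg (cathepsin G, -0.38 and -0.34) and Mpo (myeloperoxidase, -0.33 and -0.32), proteins of myeloid granules. Ctsg went from 2004 CPM in WT cells with 0 Msi2 UMIs to 262 CPM in those with 3 or more, and from 4851 to 1171 CPM in KO. Elane (neutrophil elastase), Hp (haptoglobin), Ms4a3, a gene of granulocyte and monocyte progenitors, Mt1 (metallothionein) and Ap3s1, which codes for a subunit of a vesicle adaptor, were also among them. The others were the glycolysis genes Gapdh and Pgam1, the translation factor gene Eif5a, Nme2 and Atp5g1, a subunit gene of the mitochondrial ATP synthase. All 5 were between -0.32 and -0.25 in both libraries. Of 96 ribosomal protein and mitochondrially encoded genes, counted apart, 67 were positive and 21 negative in both.

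**Figure D4:**
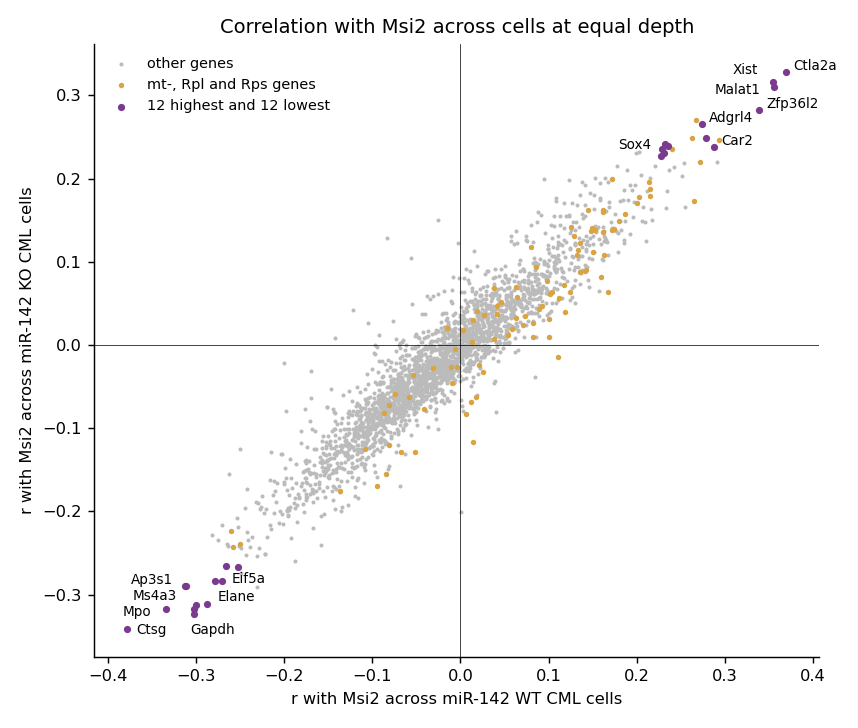
Pearson's r of each gene with Msi2 across WT cells (horizontal axis) and across KO cells (vertical axis), for 2548 genes at 8000 UMIs per cell, without units. Points lie along a rising diagonal from Ctsg (-0.38 and -0.34) to Ctla2a (0.37 and 0.33), with 2283 genes on the same side of 0 in both libraries.

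Inside single gates, where only some of the named genes were read, most correlations were weaker. In the HSC gate Malat1 kept 0.31 in WT (855 cells) and 0.17 in KO (218 cells), while Ctla2a had 0.06 and 0.04, Ctsg -0.05 and -0.01 and Elane 0.03 and -0.04. In the granule gate Ctla2a had 0.21 and 0.22 and Elane -0.15 and -0.17 (344 and 2170 cells). In the lymphoid-primed gate (661 and 442 cells) Malat1 had 0.27 and 0.29, Ctla2a 0.23 and 0.21, and Elane -0.01 and 0.01. Values this near 0 in sparse counts are given as description only.

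RNA-binding proteins of blood stem cells served as a reference for Msi2. Of the 26 listed, 18 including Msi2 had a mean of 10 CPM or more. Of these 18, Msi2 alone was past 1.5-fold in either direction, and the 18 had a median log2 ratio of -0.18 and a range from -1.29 to 0.17. Under the floor, at a mean of 8.58 CPM, Igf2bp3 was past 2-fold higher in KO (749 and 1859 UMIs, log2 ratio 1.11, 0.99 to 1.24). Over all 7483 genes 4.86% were at least 1.5-fold lower and 2.78% at least 1.5-fold higher. Several of these genes also varied with Msi2 across cells: beside Zfp36l2, Mbnl1 (splicing factor muscleblind-like 1) had r of 0.19 in both libraries and Zfp36 0.17 and 0.20, while Ybx1, a Y-box protein that binds messages, had -0.25 and -0.24.

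Musashi partners and messages reported as Musashi targets did not move as a group. Of 22 listed, 11 had a mean of at least 10 CPM, 1 of these was at least 2-fold lower in KO (over all genes 1.18%) and 0 were at least 2-fold higher (1.02%). Their median log2 ratio was -0.10, against -0.08 over all genes. The 1 past 2-fold was Meis1, which codes for a homeodomain partner of HOXA9, with 93.2 CPM among WT and 44.98 CPM among KO cells (-1.05, -1.09 to -1.01). Under size factors it was under 2-fold. Meis1 is also in the HSC marker list, and the HSC gate held a smaller share of KO cells.

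The other members showed no shared direction. Notch1, which codes for a receptor whose inhibitor Numb is a known Musashi target, was lower in KO (17.5 and 10.5 CPM, log2 ratio -0.73). Hoxa9 (-0.16), Eif3a (-0.17), Ikzf2 (-0.10), Syncrip (-0.08), Myc (-0.01) and Tspan3 (0.02) were all within 0.2 of 0. Cdkn1a, the cell cycle inhibitor p21, had 27.9 and 34.2 CPM (0.29), and Tgfbr1, a TGF-beta receptor, 12.97 and 20.4 CPM (0.65). Numb itself was below the floor, at 8.01 and 8.11 CPM (0.02, -0.10 to 0.14). Of the tested members Ikzf2 had the highest r with Msi2 across cells, 0.21 in WT and 0.20 in KO.

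Because Msi2 and Mir142 lie on 1 chromosome, genes around Msi2 were read as well. Within 1 Mb of Msi2 there were 46 other genes of the matrices, and 10 had a mean of at least 10 CPM. Of these 4 were lower in KO and 0 were 2-fold lower, with log2 ratios down to -0.50 (Scpep1, 205.5 kb away). The nearest of the 10 on either side, Akap1 (112 kb) and Mrps23 (128 kb), had 0.25 and 0.21. Nearer still but under 10 CPM, and named after its values were seen, the noncoding RNA C030037D09Rik starts 0.132 kb from the Msi2 start on the opposite strand. It had 484 UMIs in WT and 193 in KO, a log2 ratio of -1.52 (-1.77 to -1.28). Other genes of the window under 10 CPM went both ways. Sept4 had 342 UMIs in WT and 151 in KO (log2 ratio -1.38), and Ppm1e had 98 and 250 (1.15). Of the 10, a single one was past 2-fold, Tspoap1, with 553 UMIs in WT (4.002 CPM) and 53561 UMIs in KO (338 CPM), or a log2 ratio of 6.40. Tspoap1 begins 3.61 kb after Mir142, on the same strand, and 553 kb from Msi2.

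**Figure D5:**
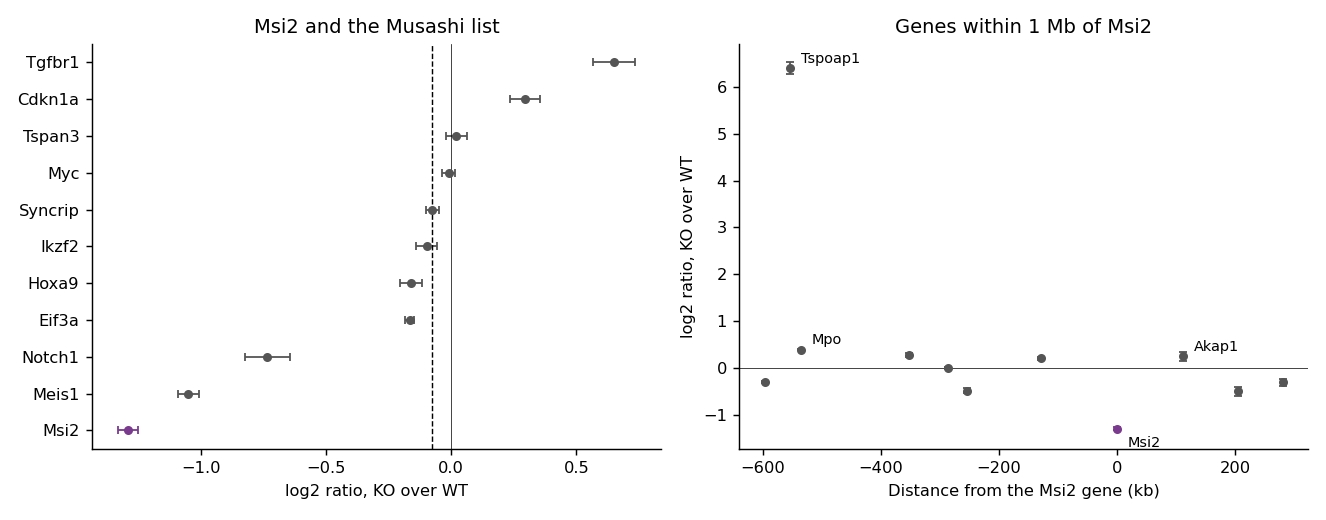
Log2 ratio of KO over WT for Msi2 (purple) and 10 of the 11 Musashi list members of at least 10 CPM (left, dashed line at the median of all genes, -0.08), and for genes of at least 10 CPM within 1 Mb by their distance from Msi2 in kb (right). Bars are exact 95% intervals of counting error. Msi2 at -1.29 is the lowest point of both panels and Tspoap1 at 6.40 the highest of the right panel.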

How the data were processed

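LSK cells were profiled in 2 libraries, 1 per genotype. The deposited values were raw UMI counts per gene and barcode, made by the authors with Cell Ranger (6.1.2 in the processing notes, 4 in the matrix header) on mm10, without cell filtering. Cells held 80.9% and 84.4% of all UMIs in the WT and KO file, while 24 and 4 barcodes failed the mitochondrial limit. The main values include doublets. Scrublet in scanpy 1.11.5 ranked cells for an alternative without the top 230 WT and 238 KO cells, 0.8% per 1000 cells. Each cell was thinned without replacement to 8000 UMIs for detection, gates and correlations. A cell passing the monocyte and granule gates counted as monocyte. CPM and log2 ratios used summed counts of unthinned cells, with exact Poisson, Clopper-Pearson or conditional binomial intervals, checked on simulated data. Ratios within groups needed 50 cells in each library. Composition weights were the mean share of 8 groups.

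Msi2, the lists and the rules were chosen with earlier results of these data known. Named genes were Msi2, Msi1, list members past their floor or fold, the 12 highest and 12 lowest by the r nearer to 0 of both libraries (without mt-, Rpl and Rps genes), expressed genes within 1 Mb of Msi2, and label checks. Numb, Igf2bp3, C030037D09Rik, Sept4 and Ppm1e were added after their values were seen. Annotation was GENCODE M21 (GRCm38), with UTRs taken downstream of the annotated stop codon. Values of 1 member of the Musashi list and 1 cell type marker are not reported here.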

Additional observations from a re-analysis of the deposited data

Results flagged for a closer look

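In the mast cell and basophil gate the log2 ratio of Msi2, KO over WT, was 0.1045, while it was below 0 in the 5 other gates with 50 cells or more in both libraries. The difference between the gates was not tested, since each genotype had 1 library. The interval of this gate (-0.19 to 0.40) included 0, and at equal depth 34.2% of its WT and 34.3% of its KO cells had a Msi2 UMI.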

How the results depend on the processing

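Msi2 was lower in KO over all cells under each of the 6 alternatives run, but its size varied: the log2 ratio was -1.095 under size factors and -0.7521 at 1 shared composition of gates, against -1.292. The difference in detection shrank with depth per cell, from -25.7 points at 8000 UMIs to -20.45 at 4000 and -13.41 at 2000 UMIs, and it was -18.94 points without thinning. Over the gates, the median log2 ratio moved from -0.5107 to -0.3143 under size factors. The HSC over granule log2 ratio in WT moved from 2.653 to 2.82 with 1 more marker or UMI required, and to 3.137 (2.65 in KO, against 2.272) with the UMIs required doubled, an alternative chosen after seeing the data. Across 5 other gate settings, 25 of 30 gate values were lower in KO, and the other 5 were those of the mast cell and basophil gate. Of the 24 genes named for their r with Msi2, 7 were named again when cells with few cell cycle genes were used (885 WT and 1010 KO cells), where 6 WT cells had 50 granule UMIs or more. There 19 of the 24 kept their sign in both libraries, 1 of the 12 lowest was named again, and in WT Elane (0.0041), Hp (0.011), Ms4a3 (0.030), Eif5a (0.11) and Atp5g1 (0.0094) were no longer negative. With Spearman's rho 22 were. Of the Musashi list, 3 members (Meis1, Igf2bp3 and Jag1) were past 2-fold without the filter on low counts and 0 under size factors, against 1. No paired analysis was possible because each group had 1 library and no result came from a test. The precision of small gates and of 1 library per genotype limits these values, and the spread between mice is unknown.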
